A study of Mus musculus with 2 samples.

Results

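The MS4A genes encode small tetraspan membrane proteins, of which CD20 is the best known. The 10 mouse genes described here were taken by gene symbol from a list drawn up with earlier results of these arrays known. Each had 1 probe set with a gene symbol of its own, among 19938 genes measured on the arrays. They are Ms4a1, Ms4a3, Ms4a4a, Ms4a4b, Ms4a4c, Ms4a6b, Ms4a6c, Ms4a6d, Ms4a7 and Ms4a8a. Macrophages of the colonic lamina propria were compared between 1 array for mice given 3% (wt/vol) dextran sulfate sodium (DSS) in the drinking water for 5 days and 1 array for mice given water alone. DSS injures the colon lining and is used to induce colitis. Both populations were sorted as positive for CD45, IAb, CD11b and F4/80 and negative for CD103. The labels give no strain, age, sex or number of pooled mice.

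MS4A proteins cross the membrane several times, with both ends in the cytoplasm. They associate with other receptors in the membrane and modify their signalling. CD20 does so in B cells, the beta chain of the IgE receptor does so in mast cells, and several other members are carried by monocytes and tissue macrophages. In mouse the genes lie next to each other on chromosome 19, and several are recent copies of one another.

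Values are log2 signals from robust multi-array averaging (RMA), and a difference is DSS minus control on that scale. With 1 array per group the conditions could not be tested and no value carries an error from replicates. Each difference describes these arrays only, and the treatment cannot be told apart from any batch of scanning or hybridisation. As a scale for probe noise alone, probe sets of the same gene differed with a pooled SD of 0.28 in their difference, over 638 genes with several informative ones. Array medians were 5.62 for DSS and 5.70 for control. A gene was past the signal rule when its signal reached the array's median on at least 1 array, a rule of size and not a detection limit. These are bulk samples, in which more cells of a type and more RNA per cell cannot be told apart.

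Ms4a4c, Ms4a8a and Ms4a4b were at least 2-fold higher on the DSS array, and none of the other 7 genes was 2-fold apart in either direction. Of the 10 genes, 8 were past the signal rule, of which 3 were higher by 2-fold or more and 0 lower by as much. Over the 11163 genes past the rule, 3.99% were higher by 2-fold or more and 3.03% were lower. Ms4a4b was past the rule only through its DSS signal. Without a signal rule, 3 of 10 genes were higher by that size, beside 2.25% of all genes, and 0 of 10 were lower, beside 1.72% of all genes. The median difference was 0.49 over the 10 genes and 0.49 over the 8, against -0.06 over all genes and -0.03 over all genes past the rule. Of the 10 differences 8 were positive, beside 39.9% over all genes. The count was 9 beside 53.8% under median centring, where Ms4a3 turns positive, and 8 beside 49.9% under loess centring, where Ms4a3 turns positive and Ms4a6b negative.

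**Figure D1:**
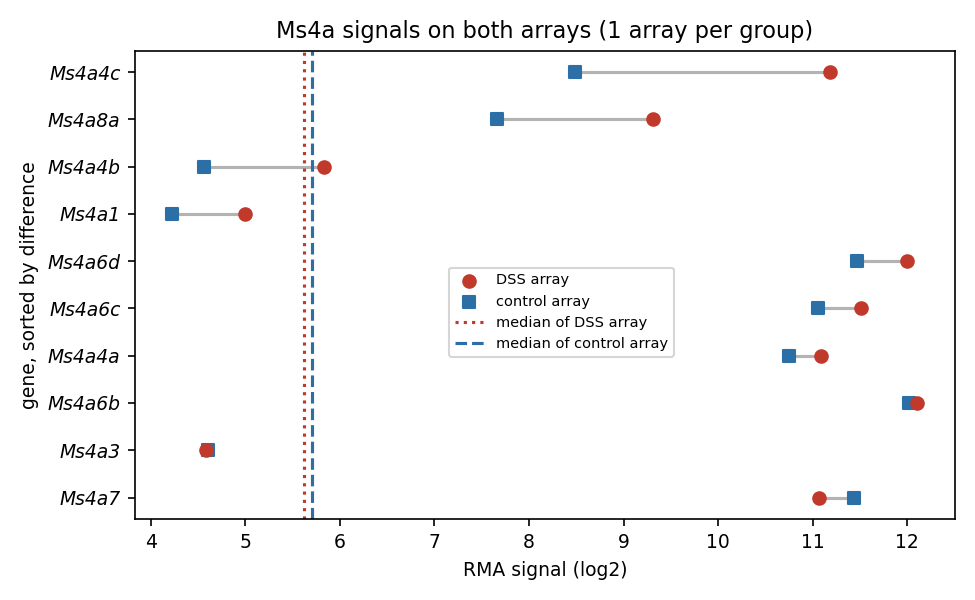
Log2 RMA signal of each Ms4a gene on the DSS array (circles) and the control array (squares), 1 array per group, with dotted and dashed lines at the array medians of 5.62 and 5.70. Ms4a4c, Ms4a8a and Ms4a4b have the widest gaps, and both points of Ms4a1 and of Ms4a3 lie below the medians.

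Ms4a4c (probe set 10461594) had the largest difference of the 10. It encodes a leukocyte member of the family that is induced by interferon in mouse cells. Its signal was 11.18 on the DSS array and 8.48 on the control array, a difference of 2.70 or 6.48-fold. Both signals were well above the array medians, so the fold does not start from a dim signal. Of the 11163 genes past the signal rule, 71 had a higher difference. Ms4a4b (probe set 10461605), known from T cells, where it associates with the co-stimulatory receptor GITR, had 5.83 on the DSS array and 4.56 on the control array. That difference of 1.27, or 2.41-fold, started from a control signal 1.14 below the median and ended 0.21 above it on the DSS array. Its size is therefore uncertain, since RMA compresses differences of dim probe sets.

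Ms4a4c and Ms4a4b are neighbours and close copies, so their promoters are shown to compare the copies. The sequences are 300 bases each from RefSeq (GRCm38.p6), 250 before and 50 after the start, both on the plus strand, at chr19:11407411-11407710 for Ms4a4c and chr19:11443308-11443607 for Ms4a4b. Capitals mark the longest run of letters that both hold, 20 bases.
Ms4a4c: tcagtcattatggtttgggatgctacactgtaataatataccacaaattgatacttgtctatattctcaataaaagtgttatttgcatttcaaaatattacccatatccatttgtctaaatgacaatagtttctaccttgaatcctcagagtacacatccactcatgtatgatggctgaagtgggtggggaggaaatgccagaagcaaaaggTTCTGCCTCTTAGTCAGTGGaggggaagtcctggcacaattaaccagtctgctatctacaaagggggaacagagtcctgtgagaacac
Ms4a4b: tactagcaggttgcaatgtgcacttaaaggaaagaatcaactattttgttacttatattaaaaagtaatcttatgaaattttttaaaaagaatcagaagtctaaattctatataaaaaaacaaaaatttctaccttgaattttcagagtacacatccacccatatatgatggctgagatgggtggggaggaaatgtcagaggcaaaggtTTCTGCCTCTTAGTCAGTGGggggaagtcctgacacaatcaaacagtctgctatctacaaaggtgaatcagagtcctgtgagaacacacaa

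In the best local alignment these promoters had 159 identical bases in 178 columns (89.3%), from base 123 of the Ms4a4c window and base 120 of the Ms4a4b window to near the ends. The bases further upstream lay outside the alignment. Whether the 2 probe sets share sequence, so that RNA of Ms4a4c adds to the signal of Ms4a4b, was not tested.

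T cells are a known source of Ms4a4b. Of 11 measured T and NK cell markers, 4 were past the signal rule, and on the DSS array 0 of these were higher by 2-fold or more and 3 were lower. These were Cd28, a co-stimulatory receptor, Il7r, the interleukin 7 receptor, and Cd2, an adhesion molecule, with differences of -2.85, -1.42 and -1.27. The defining chains Cd3d, Cd3e and Cd3g did not reach the median of either array, at 4.96, 5.50 and 4.95 on the DSS array and 4.41, 5.39 and 4.55 on the control array. The mean log2 signal of the list was 5.68 on the DSS array and 6.05 on the control array. Over the 11 measured markers 6 differences were positive and 5 negative, with all 3 CD3 chains among the positive ones, and the part of T cells in the signal of Ms4a4b was not tested.

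Ms4a8a (probe set 10466130) is expressed by tumour-associated and alternatively activated macrophages in mouse. Its signal was 9.31 on the DSS array and 7.67 on the control array, a difference of 1.65 or 3.13-fold, with 167 genes past the signal rule having a higher one. Both of its signals were above the array medians. Its promoter, at chr19:11081054-11081353 on the minus strand, is shown with 2 motif matches in capitals.
Ms4a8a: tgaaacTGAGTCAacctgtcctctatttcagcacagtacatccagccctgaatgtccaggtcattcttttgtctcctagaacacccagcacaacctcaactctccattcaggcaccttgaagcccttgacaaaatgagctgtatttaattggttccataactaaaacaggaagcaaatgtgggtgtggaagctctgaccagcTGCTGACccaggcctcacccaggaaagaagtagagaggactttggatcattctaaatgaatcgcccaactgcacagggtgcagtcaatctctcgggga
The first match is an AP-1 site (TGANTCA) 244 bases before the start and the second a MAF half-site (TGCTGAC) 48 bases before it. An AP-1 site was found in 7.81% and a MAF half-site in 4.67% of all 32851 RefSeq promoter windows of this length.

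**Figure D2:**
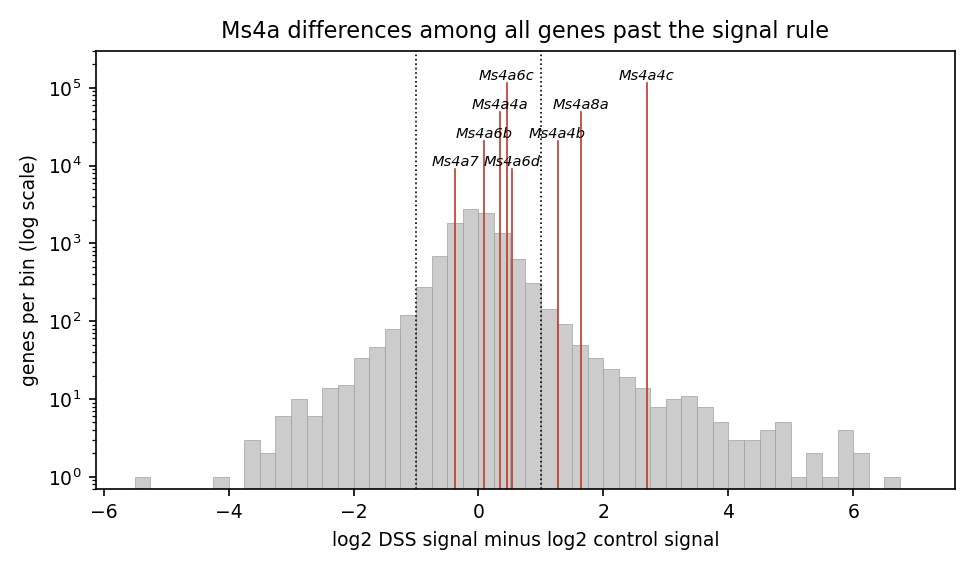
Histogram of the log2 difference, DSS minus control, over the 11163 genes past the signal rule (bins of 0.25, genes per bin on a log axis), with red lines at the 8 Ms4a genes past the rule and dotted lines at 2-fold. Ms4a4c at 2.70, Ms4a8a at 1.65 and Ms4a4b at 1.27 lie outside the dotted lines, and the other 5 lie between -0.37 and 0.54.

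The remaining 5 genes past the rule had signals above the medians of both arrays and lay within 2-fold. Ms4a6d, which in mouse macrophages forms a complex with the complement receptor Vsig4, had 12.00 on the DSS array and 11.47 on the control array, a difference of 0.54. Vsig4 itself had 4.82 on the DSS array, below that array's median, and 10.11 on the control array. The RNA signals of these 2 partners thus had differences of opposite sign, at -5.29 for Vsig4 and within 2-fold for Ms4a6d. Protein was not measured. Ms4a4a, a macrophage member that associates with the beta-glucan receptor Dectin-1, had 11.09 on the DSS array and 10.75 on the control array, a difference of 0.34. Clec7a, which encodes Dectin-1, had 10.86 on the DSS array and 9.91 on the control array, a difference of 0.94. Ms4a7 (probe set 10466200), a marker of macrophages, was the only gene past the rule with a negative difference, at 11.06 on the DSS array and 11.43 on the control array (-0.37).

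Ms4a6c and Ms4a6b, another pair of close copies, lay within 2-fold. Whether their probe sets share sequence was not tested. Ms4a6c had 11.51 on the DSS array and 11.05 on the control array, a difference of 0.45. Ms4a6b had 12.11 on the DSS array and 12.02 on the control array, and its difference of 0.09 was -0.07 under loess centring, so no direction is given. Their promoters, at chr19:11469118-11469417 for Ms4a6c and chr19:11518309-11518608 for Ms4a6b, both on the plus strand, are shown for comparison with the first pair. Capitals mark their longest shared run, 48 bases.
Ms4a6c: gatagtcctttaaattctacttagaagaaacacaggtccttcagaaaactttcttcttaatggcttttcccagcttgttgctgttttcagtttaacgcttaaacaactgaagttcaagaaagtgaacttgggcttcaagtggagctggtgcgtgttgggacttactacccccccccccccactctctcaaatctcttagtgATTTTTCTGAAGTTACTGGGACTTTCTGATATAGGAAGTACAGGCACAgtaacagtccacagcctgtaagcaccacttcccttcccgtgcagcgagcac
Ms4a6b: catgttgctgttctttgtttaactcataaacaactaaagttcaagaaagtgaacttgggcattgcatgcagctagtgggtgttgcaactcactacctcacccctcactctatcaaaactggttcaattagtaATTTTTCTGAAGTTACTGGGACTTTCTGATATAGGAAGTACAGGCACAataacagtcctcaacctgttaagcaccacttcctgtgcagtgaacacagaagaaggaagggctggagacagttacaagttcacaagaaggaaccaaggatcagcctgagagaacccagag

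These promoters had 193 identical bases in 234 aligned columns (82.5%). The 8 genes with a promoter window had 9 windows, which form 36 pairs. The other 34 pairs aligned over at most 30 columns, with shared runs of at most 12 bases. The Ms4a4 pair had the higher percent identity and the Ms4a6 pair the longer alignment and shared run. The Ms4a4 pair had differences of 2.70 and 1.27, and the Ms4a6 pair had differences of 0.45 and 0.09. Ms4a1 and Ms4a6d were not compared.

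The 9 windows were searched on both strands for 7 motifs. An IRF core (GAAANNGAA) was found in 4 of them, against 8.56% of all windows. In Ms4a6c and Ms4a6b it lies in the aligned part, 133 and 206 bases before their starts. The other matches are in both Ms4a7 windows, so the 4 windows are not independent. The windows of Ms4a4c and Ms4a4b hold none. An AP-1 site was found in 3 of 9 windows, of Ms4a8a, Ms4a4b and the second start of Ms4a7. A MAF half-site was found in 1 (Ms4a8a), a TATA box (TATAAA) in 1 (Ms4a4b, against 13.6% of all windows) and a C/EBP palindrome (TTGCNCAA) in 1 (Ms4a3, against 2.94%). The PU.1 core (GAGGAAG, 13.6%) and the GAS element (TTCNNNGAA, 8.30%) were in none, and no matches overlapped. The promoter of Ms4a7, whose difference was -0.37, is shown with its IRF core match in capitals, read on the opposite strand (first start, chr19:11336097-11336396, minus strand).
Ms4a7: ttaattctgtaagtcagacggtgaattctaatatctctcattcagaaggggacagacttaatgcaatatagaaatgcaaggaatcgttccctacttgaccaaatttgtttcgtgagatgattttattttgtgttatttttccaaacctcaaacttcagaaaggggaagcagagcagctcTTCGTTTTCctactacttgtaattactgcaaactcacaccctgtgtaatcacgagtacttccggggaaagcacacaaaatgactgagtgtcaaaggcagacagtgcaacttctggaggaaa
These matches describe letters in windows of 300 bases and no binding was measured. The GC content of the 9 windows was 31.7% to 47.7%, below the median of 52.7% over all windows. The motif shares over all windows were not matched for GC content.

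Ms4a1 and Ms4a3 were below the medians of both arrays. Ms4a1, which encodes CD20, had 4.99 on the DSS array and 4.23 on the control array. Its difference of 0.76 lies between signals for which no detection call is given. Of 11 measured B cell markers 5 were above both medians, 5 were below both and 1 was above on the control array alone. Cd79a, a chain of the B cell receptor, was below both, at 4.78 on the DSS array and 5.02 on the control array, and its partner chain Cd79b was above both, at 6.82 on the DSS array and 6.71 on the control array. Of the 6 markers past the rule, 0 were higher by 2-fold or more and 1 was lower, Bank1, an adaptor of the B cell receptor, at 7.51 on the DSS array and 9.87 on the control array. The mean log2 signal of this list was 5.71 on the DSS array and 5.96 on the control array. Ms4a3, a marker of granulocyte and monocyte progenitors, had 4.58 on the DSS array and 4.61 on the control array, and its sign turns under both centrings. Of 8 granulocyte progenitor markers, 4 were past the signal rule, 4 were below both medians and 0 were 2-fold apart. Their differences were positive for 4 and negative for 4, the largest being that of Kit at 0.96 (1.95-fold). Elane, a granule protease of such progenitors, was below both, at 4.77 on the DSS array and 5.06 on the control array, and Prtn3, another one, was above both, at 6.20 on the DSS array and 5.94 on the control array.

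**Figure D3:**
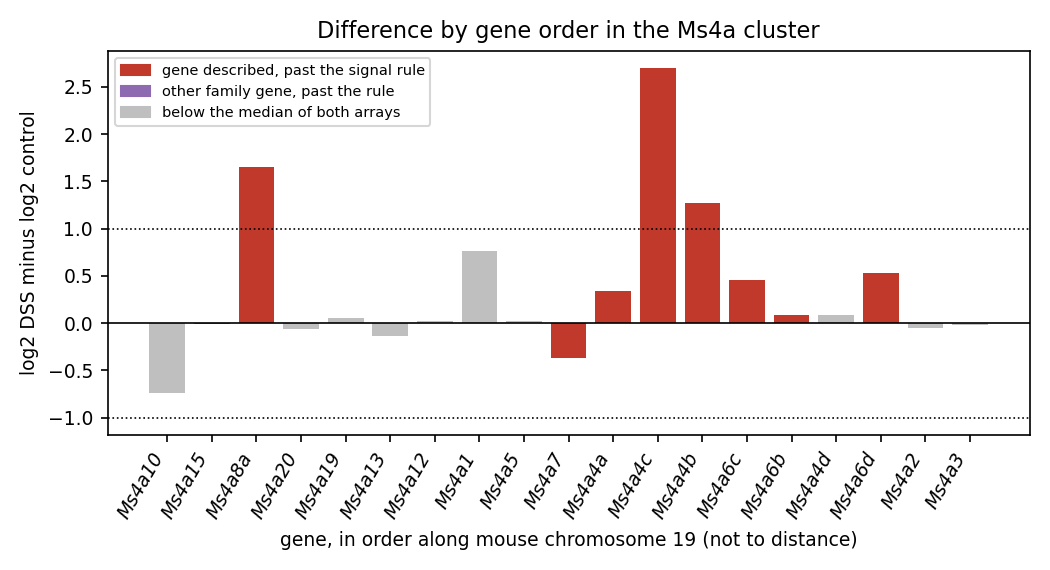
Log2 difference, DSS minus control, of 19 family genes in their order along mouse chromosome 19, not drawn to distance. Red bars are the described genes past the signal rule and grey bars are genes below the medians of both arrays, with dotted lines at 2-fold; the bar of Ms4a15, at -0.01, is too short to see. Ms4a4c and Ms4a4b stand next to each other, and Ms4a8a stands apart from them.

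Along the chromosome, the 2 Ms4a4 genes that were at least 2-fold higher were adjacent, and Ms4a4a on one side and Ms4a6c on the other had differences of 0.34 and 0.45. Ms4a8a stood 3rd and Ms4a4c 12th among the 19 family genes with values. The neighbours of Ms4a8a, Ms4a15 and Ms4a20, had differences of -0.01 and -0.06. Of the 9 family genes here that are not among the 10, 8 were below both medians. Ms4a4d, next to Ms4a6b, was one of them, at 5.44 on the DSS array and 5.36 on the control array. Ms4a2, the beta chain of the IgE receptor, had 4.09 on the DSS array and 4.14 on the control array, and of 10 mast cell and basophil markers 8 were below both medians and 0 were 2-fold apart.

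Neutrophil and monocyte markers had higher median differences than the Ms4a genes on the same arrays. All 10 neutrophil markers were at least 2-fold higher on the DSS array, with a mean log2 signal of 10.85 there and 6.09 on the control array. Ly6g, which identifies mouse neutrophils, had 10.01 on the DSS array and 4.04 on the control array. Of 7 measured monocyte markers 6 were higher by 2-fold or more and 1 (F13a1, a coagulation factor subunit) was lower, with a list mean of 10.88 on the DSS array and 8.05 on the control array. Of 11 measured resident macrophage markers 0 were higher by 2-fold or more and 6 were lower, with a list mean of 8.45 on the DSS array and 10.62 on the control array. All 11 differences were negative, from -5.29 for Vsig4 to -0.42. C1qa, a complement component of tissue macrophages and within 2-fold, was above the medians on both, at 10.32 on the DSS array and 11.17 on the control array. Of 8 epithelial markers 0 were 2-fold apart, 4 were above the medians of both arrays and 3 were below both. Their differences were positive for 7 and negative for 1, beside 39.9% positive over all genes. The median difference was 0.35 over the 5 past the signal rule. The part of these cells in the signals of Ms4a4c, Ms4a8a and Ms4a4b was not tested.

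**Figure D4:**
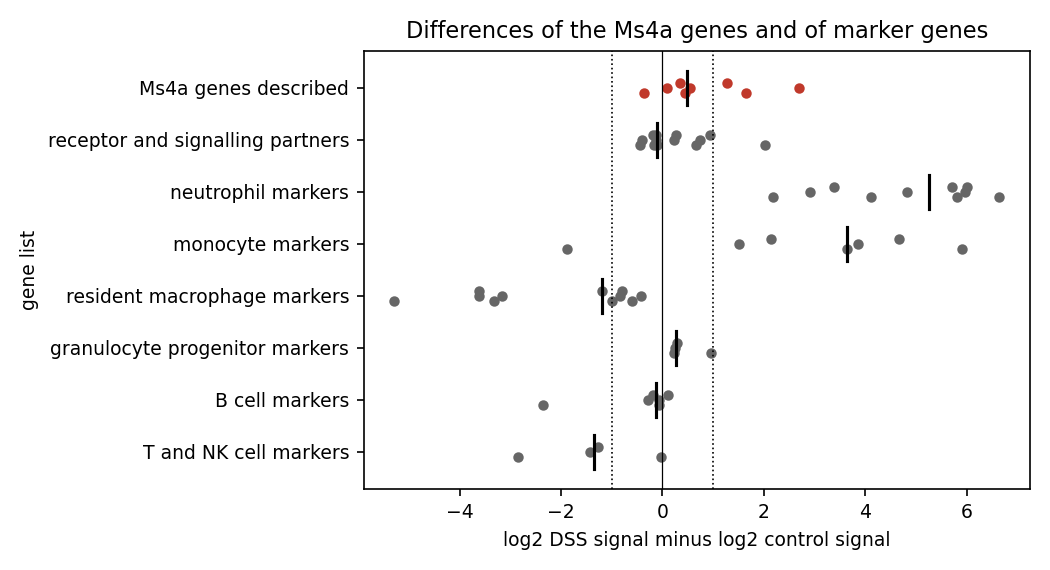
Log2 difference, DSS minus control, of the genes past the signal rule in each list, 1 point per gene, with black bars at list medians and dotted lines at 2-fold. The Ms4a genes have a median of 0.49, between the resident macrophage markers at -1.20 and the monocyte and neutrophil markers at 3.64 and 5.27.

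Genes whose proteins work with MS4A members, or carry signals of their partner receptors, were mostly within 2-fold. Of 14 measured, 13 were past the rule, 1 at least 2-fold higher, 0 lower and 12 between, with a median difference of -0.11. The higher one was Fyn, a Src family kinase, at 8.83 on the DSS array and 6.81 on the control array (4.04-fold). After Clec7a, the next were Plcg2, a phospholipase, at 0.75, and Syk, the kinase downstream of Dectin-1 and Fc receptors, at 0.66. Trem2, a lipid receptor of macrophages whose soluble form is linked to MS4A proteins in human, had 7.01 on the DSS array and 7.45 on the control array. Tyrobp, its signalling adaptor, had 12.52 on the DSS array and 12.26 on the control array.

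The genes nearest to each of the 3 in the pair of log2 signals, over 2 arrays, were taken as the most alike patterns. With 2 values per gene among 11163 genes, such nearness describes signal levels only and does not show shared regulation. For Ms4a4c these were Fbxl5 and AW112010, at distances of 0.12 and 0.16. For Ms4a8a they were Myo1e and Ccng2, at 0.16 and 0.18, and for Ms4a4b they were Retnlb and Tnfsf4, at 0.05 and 0.15.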

How the data were processed

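The authors deposited log2 signals of 35556 probe sets on 2 arrays, made by RMA per the submitters' processing notes. The sources used here give no version, settings, array design or genome build. RMA compresses differences of dim probe sets, and quantile normalisation, if applied, takes away a shift of a whole array. The values were used as deposited.

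Genes were named from the platform annotation (21789 probe sets with 1 symbol, 1621 with several, 12146 with none), with 21698 matched to RefSeq by gene identifier. A gene took the probe set with the highest mean signal, and each of the 10 Ms4a genes had 1. Array medians rest on 28939 probe sets. With 1 array per group, counts used a size of 2-fold and no p-value was computed. The number of arrays limits the precision. Across genes past the signal rule the robust SD of differences was 0.39.

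The members and gene lists were chosen with earlier results of these data known. Named genes were all members, listed family genes, up to 4 genes per list with the largest difference and the 2 nearest genes of each member at 2-fold. Cd3e, Cd3g, Cd79b, Prtn3, F13a1, C1qa, Trem2 and Tyrobp were named from the lists outside this rule, after their values were seen. Promoters were aligned locally with Biopython 1.88. Calculations used Python 3.11.15, numpy 2.4.6, pandas 2.3.3 and statsmodels 0.14.6, plots matplotlib 3.10.9. The counting steps were run on simulated data with planted differences well beyond the size rule. Such a run checks the code only and does not measure the precision of these arrays.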

Additional observations from a re-analysis of the deposited data

How the results depend on the processing

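No paired analysis was possible because each group holds 1 array, so no array could be left out either. The alternatives were centring on array medians, loess centring (span 0.4), the mean of all probe sets of a gene, a floor at the 25th percentile, a signal rule on both arrays, no signal rule, and sizes of 1.5-fold and 3-fold. The count of Ms4a genes past the size rule and higher on the DSS array was 3 in all but 2 of these. The rule on both arrays and the size of 3-fold gave 2, without Ms4a4b in both cases. Over all genes counted under the same setting, the share lay between 1.64% (3-fold) and 9.85% (1.5-fold), with 3.29% under the rule on both arrays. The mean of probe sets could not change the count, since each of the 10 genes had 1. The floor changed the difference of Ms4a1 only, which is not past the signal rule. The count of lower genes was 0 in all, beside shares over all genes between 1.06% (3-fold) and 8.80% (1.5-fold). The median difference lay between 0.35 (loess centring) and 0.58 (median centring). Over all genes past the rule it was -0.003 and 0.05 under these 2 centrings. Ms4a4c lay between 2.59 and 2.78, Ms4a8a between 1.59 and 1.73 and Ms4a4b between 1.27 and 1.38. Signs turned only for Ms4a3 (-0.02 to 0.06) and Ms4a6b (-0.07 to 0.17). Signals under the array medians limit Ms4a1, Ms4a3 and the control value of Ms4a4b.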

Other observations

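Tmem176a and Tmem176b, a pair of membrane protein genes on chromosome 6 that are related to the MS4A family and expressed in dendritic cells and macrophages, were above the array medians on both arrays. Tmem176a had 9.32 on the DSS array and 9.74 on the control array, a difference of -0.42. Tmem176b had 10.26 on the DSS array and 10.70 on the control array, a difference of -0.44. Both differences are negative, like that of Ms4a7 (-0.37), and all 3 are within 2-fold. A negative sign is common here, since 46.4% of all genes past the signal rule had a positive difference. Ms4a10 had the lowest difference among family genes on chromosome 19, at 4.56 on the DSS array and 5.30 on the control array (-0.74), with both signals below the medians.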
